A study of Mus musculus with 16 samples.

Results

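The stearoyl-CoA desaturases are the enzymes that the infused drug inhibits, and their genes Scd1, Scd2 and Scd3 were followed through the hippocampal RNA of 16 female mice. The members were taken by gene name from the table of raw read counts, where these 3 genes stand among 55335. There were 4 mice in each of 4 groups. WT-D and WT-S mice were wild type (labelled C57BL/6J x 129S1), and 3xTg-D and 3xTg-S mice were of the 3xTg line on a mixed B6 and 129 background, which carries human APPSwe and tauP301L transgenes under a neuron-specific Thy1.2 element. Infusion into a lateral ventricle of the brain by osmotic pump lasted 28 days, and dissection followed at 10 months of age. WT-D and 3xTg-D mice received the vehicle of 0.8% DMSO in artificial cerebrospinal fluid, which the other groups received too. WT-S and 3xTg-S mice received an inhibitor in that vehicle, which their treatment labels give by its Cayman catalogue number and the study names CAY10566. The protocol text shared by all samples instead names another product, ab142089, and gives a concentration of 80 µM. The study's methods give 80 µM for either inhibitor, and the study describes a separate cohort infused with CAY10566. The compound is taken here from the treatment labels and the study, although the sample texts differ on it. The wild-type mice were strain controls that the sources do not call littermates, and the labels give the genotypes different strains, so the alleles of the 3xTg line and the strain background cannot be told apart.

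Stearoyl-CoA desaturases sit in the membrane of the endoplasmic reticulum and place a double bond in saturated fatty acyl-CoAs, which turns stearate into oleate and palmitate into palmitoleate. Cytochrome b5 and its reductase pass them the electrons they need. In mice Scd1 is best known as the enzyme of liver, fat and skin, Scd2 is the main form of the brain and of myelinating cells, and Scd3 was described in skin and Harderian gland. An inhibitor of the enzyme acts on the protein, so the RNA measured here is the supply of message and not the activity of the enzyme.

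The genes lie side by side on mouse chromosome 19 (GRCm38, positions as the count table gives them). Scd3 spans chr19:44203269-44244016 on the plus strand, Scd2 spans chr19:44293674-44306864 on the plus strand and Scd1 spans chr19:44394455-44407879 on the minus strand, so that the cluster takes up 204611 bases. Scd4, a close relative, lies between Scd2 and Scd1. Each of the genes has 6 exons in its main transcript. Their coding sequences are alike: 90.3% of the aligned bases were identical between Scd1 and Scd2, 91.5% between Scd1 and Scd3 and 88.3% between Scd2 and Scd3. How far reads can tell the genes apart therefore bears on every value that follows, and 2 stretches of 75 bases, the length of the reads, show the extremes. In the first stretch the coding sequences of the 3 genes were identical, and a read from it could have come from any of them. It lies at chr19:44401731-44401805 in Scd1, chr19:44299702-44299776 in Scd2 and chr19:44235864-44235938 in Scd3, within an exon each time, and reads 5′ to 3′ along the transcript:
Scd1, Scd2 and Scd3: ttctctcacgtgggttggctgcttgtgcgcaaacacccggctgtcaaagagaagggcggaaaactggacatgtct

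The second stretch is the one where the 3 genes differed most, and capitals mark the bases that differ from Scd1. Scd2 differed from Scd1 at 29 bases here and Scd3 at 4. It lies at chr19:44406632-44406706 in Scd1, chr19:44294967-44295041 in Scd2 and chr19:44215465-44215539 in Scd3:
Scd1: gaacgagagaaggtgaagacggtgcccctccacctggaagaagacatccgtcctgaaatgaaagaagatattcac
Scd2: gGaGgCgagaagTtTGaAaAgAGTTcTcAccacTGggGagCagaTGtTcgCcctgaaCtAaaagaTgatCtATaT
Scd3: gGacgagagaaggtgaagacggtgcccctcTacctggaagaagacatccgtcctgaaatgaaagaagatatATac

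Most of each message lay outside such shared stretches. Of the 75-base windows along the main transcript, 154 of 4758 in Scd1 (3.24%) occurred unchanged in the transcript of another gene, against 97 of 5381 in Scd2 (1.80%) and 111 of 3415 in Scd3 (3.25%). The long 3′ untranslated regions of 3467, 3667 and 2160 bases, which are longer than the coding part of each gene, hold most of the rest. Reads that mapped to several places were set aside in the authors' counting. On the opposite strand Scd3 is overlapped by the long noncoding RNA Gm50323, which shares no exon base with it, and the microRNA gene Mir5114 (61 bases) lies inside an exon of Scd2. The strand setting of the counting is not given in the sources used here.

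Reads assigned to genes numbered 15413385 to 23590149 per mouse, which gave Scd2 20408 to 36213 reads, Scd1 2173 to 4642 reads and Scd3 42 to 110 reads. Levels are given as CPM, the usual unit of reads scaled to a fixed library total, here the reads on tested genes after TMM scaling. All 8 hippocampal marker genes were read in every mouse, with a summed level of 847 to 1206 CPM, and 2 of them differed between the genotypes. C1ql2, a marker of the dentate gyrus, was lower in 3xTg mice (17.9 ± 3.37 against 39.1 ± 6.76 CPM, SD, n = 8, log2 −1.13, edgeR adjusted p = 4.22e-06), and Spink8, a marker of pyramidal neurons, was higher (21.5 ± 4.35 against 9.33 ± 2.19 CPM, log2 1.20, edgeR adjusted p = 1.44e-05). Both were called in every comparison of 3xTg with WT groups. The other hippocampal markers were not called over both treatments. Their log2 differences were −0.16 for Prox1, 0.07 for Dsp, −0.24 for Wfs1, 0.02 for Fibcd1, −0.05 for Neurod6 and −0.00 for Zbtb20. The list thus gave no common direction for dentate or pyramidal markers. The part of these markers in the genotype results of the desaturases was not tested. Some libraries stood apart. Markers of the choroid plexus summed to 737 CPM in WT-D mouse 4 and 297 CPM in WT-S mouse 1, against 30.3 to 64.6 CPM in the other 14 mice. The share of uniquely mapped reads outside annotated genes ran from 7.82% in 3xTg-S mouse 2 to 15.1% in 3xTg-S mouse 4. In bulk tissue, fewer cells of a type and less RNA per cell cannot be told apart.

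Scd2 was by far the most abundant of the desaturases in every mouse. Per kilobase of exon, its level over the 16 mice averaged 257 CPM, which ranked 59 among 16466 genes tested and with a known length, in the top 0.358%. Scd1 averaged 34.2 CPM per kilobase (rank 1167, the top 7.09%) and Scd3 1.07 CPM per kilobase (rank 12308). The order Scd2, Scd1, Scd3 was the same in all 16 mice and the ranges did not meet. On this scale Scd2 stood 6.46 to 8.75 times above Scd1, and Scd1 stood 24.0 to 41.1 times above Scd3. Scd4, which is known from the heart, had 0 to 13 reads per mouse and did not pass the filter on low counts, so it was not tested and no fold change is given.

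Scd1 was lower in 3xTg than in WT mice under both infusions. Under vehicle, the WT mice read 196, 191, 171 and 162 CPM of Scd1 and the 3xTg mice 162, 171, 158 and 139.7 CPM. Under the inhibitor, the WT mice read 180.3, 216, 185 and 155 CPM and the 3xTg mice 155, 171, 139.6 and 125 CPM. All 8 3xTg mice lay below the mean of the 8 WT mice, and 4 of them lay below every WT mouse, so the genotypes overlapped. The CPM of 1.7% of all tested genes did not overlap between the genotypes. Under vehicle the mean was 180.0 ± 16.2 CPM for WT and 158 ± 13.3 CPM for 3xTg, and under the inhibitor 184 ± 25.1 CPM for WT and 148 ± 20.1 CPM for 3xTg (SD, n = 4).

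**Figure D1:**
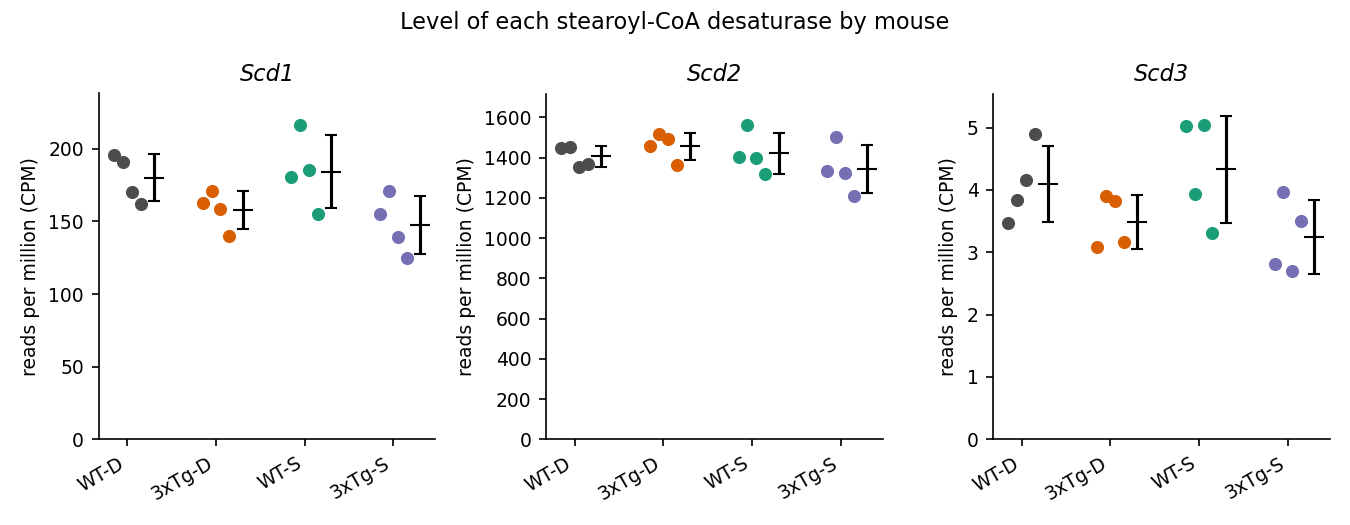
Level of Scd1, Scd2 and Scd3 in CPM (y axis, from 0) in the 4 groups (x axis), with 1 point per mouse and the mean ± SD of 4 mice as a black bar. The 8 3xTg mice read 125 to 171 CPM of Scd1 and the 8 WT mice 155 to 216 CPM, while the groups interleave for Scd2.

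Fitted over all 16 mice with treatment as a covariate, Scd1 fell by 0.25 on the log2 scale in 3xTg mice (SE 0.08, 95% interval −0.41 to −0.10), which is 16.2% less message. In edgeR's two-sided quasi-likelihood fit this passed the study's threshold of an unadjusted p of 0.01 but not an adjusted p of 0.05, since the edgeR adjusted p = 0.0632 (Benjamini-Hochberg over 16475 genes). At the unadjusted threshold 7.9% of all tested genes were called in this comparison (4.93% at the adjusted one), with 4.02% of all genes called and lower in 3xTg, so a call by itself was not rare here, and 5.49% of the genes had a smaller p than Scd1. With 4 mice against 4, no pair of groups gave a call. Between 3xTg-D and WT-D mice the log2 difference of Scd1 was −0.19 (SE 0.08, edgeR adjusted p = 0.351), where 4.86% of genes were called. Between 3xTg-S and WT-S mice it was −0.32 (SE 0.12, edgeR adjusted p = 0.331), where 4.3% were called. Between 3xTg-S and WT-D mice, a comparison that shares its controls with that of 3xTg-D, it was −0.29 (SE 0.10, edgeR adjusted p = 0.224), where 5.84% were called. Under some of the other settings these pairwise values did pass the threshold of 0.01, among them the fits with the mouse number as a block and with the share of reads outside genes as a covariate.

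The call on Scd1 over both treatments was the same in every fit tried. It passed the threshold of 0.01 in all 16 fits that left out a mouse, with log2 values from −0.30 to −0.21, and in all 8 fits with another scaling, filter, tool or covariate, with log2 values from −0.27 to −0.24. Oligodendrocytes are a main site of lipid synthesis in the brain, and their markers differed between groups. Of 12 oligodendrocyte markers tested, 3 exceeded their WT-D level in the 3xTg-D mice (among them Mbp and Mobp, with edgeR adjusted p = 0.0218 and 0.0277), where 4.86% of all genes were called. The summed level of the 12 ran from 6169 to 7240 CPM against 4831 to 5694 CPM. In the other comparisons of genotype the list did not move this way. Between 3xTg-S and WT-D mice 0 were higher and 2 lower (Mog and Mag), between 3xTg-S and WT-S mice 0 of 12 were called, and over both treatments 1 was called, Mbp, which was higher (log2 0.36, edgeR adjusted p = 0.0722). In these comparisons, in that order, 5.84%, 4.3% and 7.9% of all tested genes were called. With the oligodendrocyte marker score as a covariate, the log2 difference of Scd1 over both treatments was −0.25 (edgeR adjusted p = 0.0158). With the share of reads outside genes as a covariate it was −0.24 (edgeR adjusted p = 0.00116). These covariates also raised the calls over all genes, from 7.9% without them to 8.75% and 10.7%. The smaller adjusted p-values are therefore not particular to Scd1. Of the markers of other cells, 0 of 9 astrocyte, 0 of 8 neuron, 0 of 8 microglia and 0 of 6 endothelial genes were called between the genotypes over both treatments, while 2 of 7 genes of oligodendrocyte precursors were higher and 2 of 6 choroid plexus genes lower in 3xTg mice. The share over all genes was 7.9% there. Without both mice that had over 100 CPM of choroid plexus markers the log2 difference of Scd1 was −0.30 (edgeR adjusted p = 0.0661), a check added after the values were seen. In that fit 6.65% of all genes were called.

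Scd2, the main brain form, did not separate the genotypes. Under vehicle it stood at 1449, 1452, 1354 and 1369 CPM for WT and 1456, 1519, 1492 and 1365 CPM for 3xTg. Under the inhibitor it stood at 1402, 1563, 1400.0 and 1319 CPM for WT and 1335, 1500.3, 1326 and 1209 CPM for 3xTg. The lowest mouse of all was a 3xTg-S mouse and the highest a WT-S mouse, with the rest interleaved. The log2 difference between 3xTg and WT over both treatments was −0.01 (SE 0.05, 95% interval −0.12 to 0.09, edgeR adjusted p = 0.952), so that the interval runs from −7.98% to 6.48% of the WT level.

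Scd3, read at a far lower level, differed in the same direction as Scd1 without passing the test. Under vehicle it stood at 3.46, 3.84, 4.15 and 4.90 CPM for WT and 3.08, 3.90, 3.82 and 3.16 CPM for 3xTg. Under the inhibitor it stood at 5.02, 3.94, 5.04 and 3.31 CPM for WT and 2.81, 3.96, 2.70 and 3.51 CPM for 3xTg. All 8 3xTg mice lay below the WT mean and 4 lay below every WT mouse. The log2 difference over both treatments was −0.32 (SE 0.12, 95% interval −0.57 to −0.06), and with edgeR adjusted p = 0.180 it did not pass either threshold. WT-D mouse 4 and WT-S mouse 1, the mice with the most choroid plexus RNA, were among the 3 highest for Scd3. Without them the log2 difference was −0.24 (edgeR adjusted p = 0.461).

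No change in the message of its targets was detectable under the inhibitor. In 3xTg mice, 3xTg-S against 3xTg-D, the log2 difference was −0.10 for Scd1 (95% interval −0.32 to 0.13), −0.12 for Scd2 (−0.29 to 0.06) and −0.10 for Scd3 (−0.48 to 0.28), with edgeR adjusted p from 0.730 to 0.871. In WT mice, WT-S against WT-D, it was 0.03 for Scd1 (−0.19 to 0.26), 0.02 for Scd2 (−0.12 to 0.15) and 0.09 for Scd3 (−0.30 to 0.48), each with an edgeR adjusted p of 0.999. Of all tested genes 0.904% were called in 3xTg and 0.2% in WT mice, and these shares moved with the setting. With the mouse number as a block they were 6.88% and 0.704%. Without 3xTg-S mouse 2 the share in 3xTg mice was 4.59%, and without WT-S mouse 4 that in WT mice was 3.17%. None of the 3 desaturases was called with the block or without any single mouse in these comparisons. Over both genotypes the difference was −0.03 for Scd1 (−0.19 to 0.13), −0.05 for Scd2 (−0.16 to 0.05) and −0.00 for Scd3 (−0.26 to 0.25), where 0.832% of genes were called. In percent of the vehicle level these intervals run from −12.3% to 9.27% for Scd1, from −10.3% to 3.78% for Scd2 and from −16.3% to 19.0% for Scd3. The test of whether the inhibitor acted differently in the genotypes gave log2 differences of −0.13, −0.13 and −0.19 for Scd1, Scd2 and Scd3, with edgeR adjusted p from 0.788 to 0.846, where 0.595% of genes were called. Oligodendrocyte markers moved in these comparisons, since 3 of 12 (Mag, Cnp and Cldn11) were lower in 3xTg-S than in 3xTg-D mice and 2 of 12 were lower under the inhibitor over both genotypes, each at p of 0.01 or less and none at an adjusted p of 0.05 by edgeR. Their summed level ran from 4715 to 7315 CPM in 3xTg-S and from 3770 to 5786 CPM in WT-S mice, and their part in the values of the desaturases was not tested beyond the fits with that score as a covariate, which called 0 of the 3 genes. Other lists moved too. In 3xTg-S against 3xTg-D mice, 8 of 8 microglia (median log2 −0.41) and 9 of 9 astrocyte markers (median −0.22) were lower, with 0 called. Of 7 genes of oligodendrocyte precursors 1 was called and lower. By contrast, 1 of 8 neuron and 0 of 6 endothelial markers were lower. The part of these lists was not tested. The summed level of the 3 genes came, under vehicle, to 1590 ± 66.7 CPM for WT and 1619 ± 80.1 CPM for 3xTg, and under the inhibitor to 1610 ± 127 CPM for WT and 1493 ± 139 CPM for 3xTg (SD, n = 4).

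**Figure D2:**
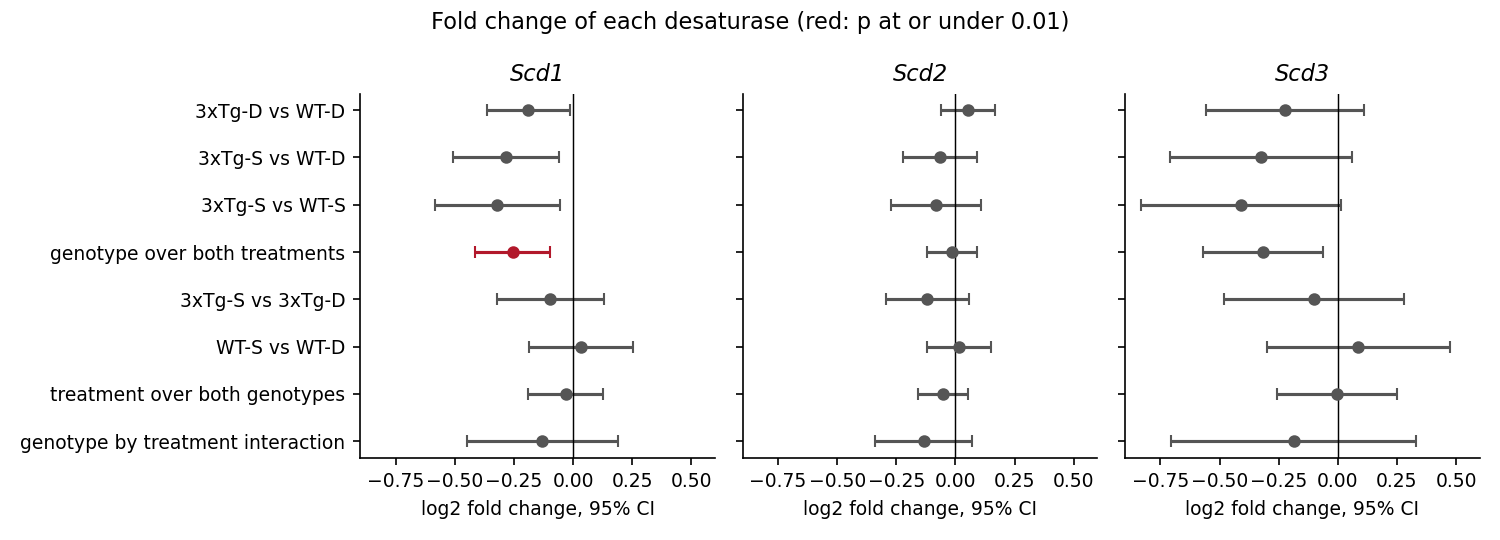
Log2 fold change (x axis) of Scd1, Scd2 and Scd3 in the 8 comparisons (y axis) with its 95% interval from edgeR's fit, the first group named over the second, and in red where p was 0.01 or less. The red value is that of Scd1 over both treatments at −0.25, and every interval for the inhibitor spans 0.

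The balance between Scd1 and Scd2 separated the genotypes without overlap. Of the summed reads of Scd1, Scd2 and Scd3 in a library, a measure that does not depend on library size, Scd1 took 11.9%, 11.6%, 11.2% and 10.6% in WT-D mice and 10.0%, 10.1%, 9.58% and 9.26% in 3xTg-D mice. It took 11.4%, 12.1%, 11.7% and 10.5% in WT-S mice and 10.4%, 10.2%, 9.51% and 9.33% in 3xTg-S mice. The highest 3xTg mouse, at 10.4%, lay below the lowest WT mouse, at 10.5%, so that all 8 3xTg mice were below all 8 WT mice, with little room between them. The mean share was 9.80% ± 0.437 in 3xTg and 11.4% ± 0.587 in WT mice (SD, n = 8), a difference of −1.56 percentage points. The exact permutation test (two-sided) of that difference gave p = 0.000155, the smallest that 8 mice against 8 allow, and 0.00163 after adjustment over 21 tests of shares. The share tests took mice as independent and did not keep the infusions apart. Their p-values do not allow for any likeness of mice with the same number. In every group the mouse numbered 4 had the lowest share of Scd1.

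Within each infusion the picture was the same. The share of Scd1 was 9.74% ± 0.392 in 3xTg-D against 11.3% ± 0.577 in WT-D mice and 9.87% ± 0.530 in 3xTg-S against 11.4% ± 0.681 in WT-S mice (SD, n = 4). Neither pair overlapped, and each gave an exact permutation p of 0.0286 (adjusted 0.0750), the smallest that 4 against 4 allow. The inhibitor and vehicle groups did not separate, with 10.6% against 10.5% over both genotypes (difference 0.119 points, exact permutation p = 0.807, adjusted 0.870). The share of Scd2 was the mirror image, 90.0% ± 0.431 in 3xTg and 88.4% ± 0.573 in WT mice (SD, n = 8), with the same exact p. The share of Scd3 was 0.216% ± 0.0281 in 3xTg and 0.264% ± 0.0478 in WT mice (SD, n = 8). That difference had an exact permutation p of 0.0328 (adjusted 0.0765), and of 0.141 without the 2 mice rich in choroid plexus markers. As a background, of 16474 other genes tested, 237 had reads relative to Scd2 that did not overlap between the 8 3xTg and the 8 WT mice (1.44%), and Scd1 was 1 of 130 that were lower in 3xTg (0.789%).

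**Figure D3:**
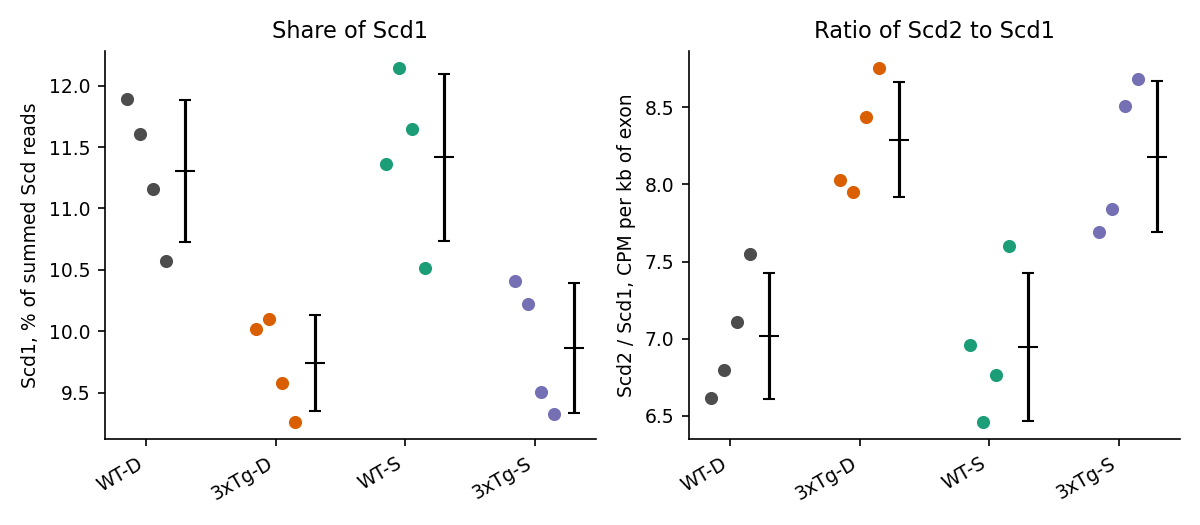
Share of Scd1 in the summed reads of the 3 desaturases (left, percent) and Scd2 over Scd1 in CPM per kilobase of exon (right), with 1 point per mouse and the mean ± SD of 4 mice as a black bar, on axes that do not start at 0. Every 3xTg mouse lies at or below 10.4% and every WT mouse at or above 10.5%, and the ratio averages 8.29 and 8.18 in 3xTg-D and 3xTg-S mice against 7.02 and 6.95 in WT-D and WT-S mice.

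The measures on which some libraries stood apart overlapped between the genotypes. The share of reads outside genes was 7.82% to 15.1% in 3xTg and 8.55% to 13.1% in WT mice, and the share of reads that mapped to several places was 11.7% to 15.1% against 12.3% to 15.4%. Without the 2 WT mice rich in choroid plexus markers, the share of Scd1 differed by −1.69 points (exact permutation p = 0.000666, 8 against 6 mice). Leaving out each mouse in turn gave differences from −1.68 to −1.45 points.

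Across mice, Scd1 and Scd2 varied together within each genotype. In log2 CPM, the 8 WT mice gave a Pearson's r of 0.962 and a Spearman's rho of 0.929 (exact permutation p = 0.000198 and 0.00223, adjusted 0.00268 and 0.0126 over 27 relations), and r was 0.906 without the 2 mice farthest from the median. Over the 8 3xTg mice r was 0.924 and rho 0.929 (exact permutation p = 0.00164 and 0.00223, adjusted 0.00737 and 0.0126), and r was 0.771 without the 2 farthest. The genotypes lay on separate lines, since at a given level of Scd2 the 3xTg mice had less Scd1, so no pooled value is given. Scd3 did not vary with Scd1 in this way: r was −0.06 over the 8 WT mice (exact permutation p = 0.881) and 0.41 over the 8 3xTg mice (exact permutation p = 0.310). These permutations took the 8 mice of a genotype as independent. Same-numbered mice under the different infusions were on average more alike than other mice, which the p-values do not allow for.

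Both genes moved with the placement of reads in the library. Scd2 was lower where the share of uniquely mapped reads outside genes was higher, with r = −0.897 and rho = −0.762 over the 8 WT mice (exact permutation p = 0.00303 and 0.0368, adjusted 0.0117 and 0.0902) and r = −0.925 and rho = −0.929 over the 8 3xTg mice (exact permutation p = 0.000818 and 0.00223, adjusted 0.00496 and 0.0126). Without the 2 farthest mice r was −0.867 and −0.863. For Scd1, r was −0.951 and rho −0.786 over the WT mice (exact permutation p = 0.000918 and 0.0279, adjusted 0.00496 and 0.0754), and r was −0.835 and rho −0.833 over the 3xTg mice (exact permutation p = 0.00923 and 0.0154, adjusted 0.0249 and 0.0519). Without the 2 farthest mice these values of r were −0.877 and −0.539. With the oligodendrocyte marker score, r was 0.546 for Scd2 and 0.520 for Scd1 over the WT mice and 0.725 and 0.686 over the 3xTg mice, none of these at an adjusted permutation p of 0.05 or less. Over all 16 mice Scd2 did pass, with r = 0.657 and rho = 0.665 (permutation p = 0.00505 and 0.00614, adjusted 0.0151 and 0.0237). For Scd1 r was then 0.467 (permutation p = 0.0686, adjusted 0.132). In every group the mouse numbered 2 had the lowest share of reads outside genes and the highest Scd2. The mouse numbered 4 had the highest share outside genes, except among 3xTg-D mice. The permutations took mice as independent, and their p-values do not allow for this likeness of same-numbered mice. What links the level of the desaturases to read placement, and the part of the mouse number, was not tested.

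**Figure D4:**
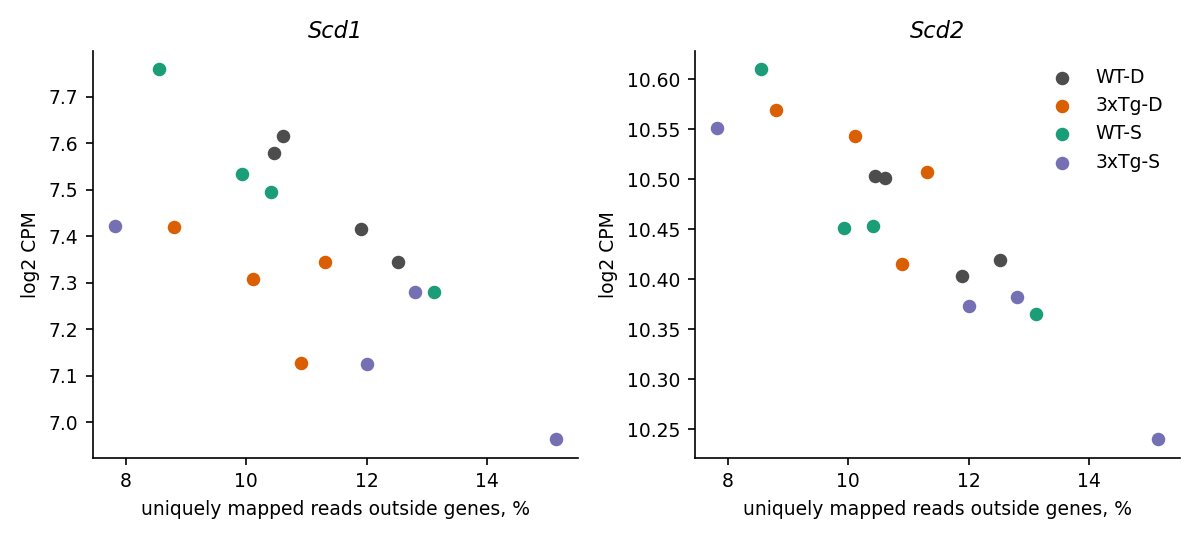
Log2 CPM of Scd1 (left) and Scd2 (right) against the percent of uniquely mapped reads outside annotated genes (x axis), with 1 point per mouse coloured by group. Both genes go down from left to right within each genotype, and for Scd1 most 3xTg points lie below the WT points at a similar x value. An exception is 3xTg-S mouse 1 (12.8%), which lies level with WT-S mouse 4 (13.1%), both at 7.28.

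The genes whose pattern over the 16 mice was most like each desaturase were ranked by Pearson's r of log2 CPM among 14459 genes with a mean of at least 1 CPM. They are given as a description, since these genes share the libraries and their read placement. For Scd1 the 5 nearest were Selenom (selenoprotein M, r = 0.925), Naaa (N-acylethanolamine acid amidase, r = 0.925), Bok (a Bcl-2 family protein, r = 0.919), Psmc3 (a proteasome subunit, r = 0.917) and Dbi (the acyl-CoA-binding protein, r = 0.916). In deviations from the group means their r was 0.876 to 0.899. For Scd2 they were Cotl1 (r = 0.952), Ppp1ca (r = 0.942), Capzb (r = 0.937), Rhob (r = 0.928) and Eif3i (r = 0.924), of which Cotl1, Capzb and Rhob encode proteins of the actin cytoskeleton or its control, and their r in deviations was 0.905 to 0.961. For Scd3, whose counts are low, they were Setmar (r = 0.882), Cebpzos (r = 0.844), Pcp4l1 (r = 0.832), Fbxo47 (r = 0.827) and Ciao1 (r = 0.818). Neither Scd1 nor Scd2 was among the 5 nearest genes of the other.

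The rest of the desaturation pathway was followed through 64 genes, of which 63 passed the filter on low counts (Scd4 did not). Over both treatments 5 of the 63 were higher and 2 lower in 3xTg mice, 11.1% of them against 7.9% of all genes, and 4 of the 7 had an adjusted p of 0.05 or less. Their median log2 difference was 0.02, beside 0.01 over all genes. Between 3xTg-D and WT-D mice 3 rose and 1 fell, 6.35% of the 63 against 4.86% of all genes. Between 3xTg-S and WT-D mice 5 rose and 3 fell, 12.7% against 5.84%. Between 3xTg-S and WT-S mice 2 rose and 1 fell, 4.76% against 4.3%. The inhibitor comparisons within WT and within 3xTg mice, the treatment comparison over both genotypes and the interaction called 0 of the 63.

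Among the other desaturases, Fads6, which encodes a predicted fatty acid desaturase, fell in 3xTg mice. Its level averaged 23.1 ± 2.67 CPM in the 3xTg-D against 28.7 ± 0.558 CPM in the WT-D group and 20.5 ± 1.76 CPM in the 3xTg-S against 26.3 ± 2.25 CPM in the WT-S group (SD, n = 4), and the log2 difference over both treatments was −0.34 (SE 0.06, edgeR adjusted p = 0.00149). It was also called between 3xTg-D and WT-D mice (log2 −0.32, edgeR adjusted p = 0.0864), between 3xTg-S and WT-D mice (log2 −0.48, edgeR adjusted p = 0.00832) and between 3xTg-S and WT-S mice (log2 −0.36, edgeR adjusted p = 0.124). The other 5 tested, which include the desaturases Fads1 and Fads2 of polyunsaturated fatty acids, were not called in any comparison.

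Of the 5 genes of the electron supply, Cyb5a was called and lower. Cyb5a, the microsomal cytochrome b5, read 36.1 ± 3.61 CPM in 3xTg against 42.9 ± 4.53 CPM in WT mice (SD, n = 8), with a log2 difference of −0.25 (SE 0.07, edgeR adjusted p = 0.0566). The reductase Cyb5r3 had a log2 difference of 0.05 (edgeR adjusted p = 0.788). For the inhibitor over both genotypes the log2 differences were −0.05 for Cyb5a and 0.02 for Cyb5r3.

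Among the 12 genes that supply saturated acyl-CoA, Acly and Acaca rose in 3xTg mice. Acly, whose product makes cytosolic acetyl-CoA from citrate, read 174 ± 7.78 CPM in 3xTg against 152 ± 6.81 CPM in WT mice (SD, n = 8), a log2 difference of 0.19 (SE 0.04, edgeR adjusted p = 0.00525). Acaca, acetyl-CoA carboxylase, read 39.3 ± 3.89 against 33.9 ± 2.74 CPM, a log2 difference of 0.21 (SE 0.07, edgeR adjusted p = 0.0833). Fasn, fatty acid synthase, had a log2 difference of 0.03 (edgeR adjusted p = 0.935). Elovl6, the elongase that turns palmitate into stearate, had a log2 difference of −0.02 (edgeR adjusted p = 0.902). Under the inhibitor, over both genotypes, Elovl6 stood at a log2 difference of 0.10 (95% interval 0.02 to 0.19, edgeR adjusted p = 1.00), which did not pass the threshold.

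Of 23 regulators of these genes, 3 rose in 3xTg mice over both treatments. Nfya, a subunit of the NF-Y complex that binds with SREBP at lipid gene promoters, read 23.5 ± 2.72 CPM in 3xTg against 18.9 ± 1.07 CPM in WT mice (SD, n = 8), a log2 difference of 0.32 (SE 0.07, edgeR adjusted p = 0.00841). Srebf2, the SREBP of the cholesterol pathway, read 158 ± 7.38 against 139 ± 8.33 CPM, a log2 difference of 0.18 (SE 0.04, edgeR adjusted p = 0.0163). Rxra, the partner of the liver X receptors, read 34.1 ± 3.40 against 29.3 ± 2.63 CPM, a log2 difference of 0.22 (SE 0.06, edgeR adjusted p = 0.0510). Srebf1, the SREBP that drives fatty acid synthesis and Scd1, was lower in 3xTg-S than in WT-D mice, at 26.4 ± 1.75 against 33.6 ± 2.07 CPM (SD, n = 4), with a log2 difference of −0.35 (SE 0.07, edgeR adjusted p = 0.0426). Over both treatments its log2 difference was −0.18 (edgeR adjusted p = 0.200). Insig2, which holds SREBP back in the endoplasmic reticulum, was called between 3xTg-D and WT-D mice (log2 0.19, edgeR adjusted p = 0.132).

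The liver X receptors Nr1h2 and Nr1h3, and the 4 genes listed here as their targets (Abca1, Abcg1, Mylip and Lpcat3), were not called in any comparison. Over both treatments Nr1h2 had a log2 difference of 0.00 (edgeR adjusted p = 1.00) and Nr1h3 a log2 difference of −0.32 (95% interval −0.63 to −0.01, edgeR adjusted p = 0.294) at 1.50 against 1.88 CPM. The 4 target genes, which include the sterol transporters Abca1 and Abcg1, had log2 differences from −0.10 to 0.02. Of 13 genes of the pathways that use or store monounsaturated fatty acids, Lpin2, a phosphatidate phosphatase, was called between 3xTg-S and WT-D mice (log2 0.20, edgeR adjusted p = 0.124). Over both treatments 0 of the 13 were called, with log2 differences from −0.11 to 0.34.

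**Figure D5:**
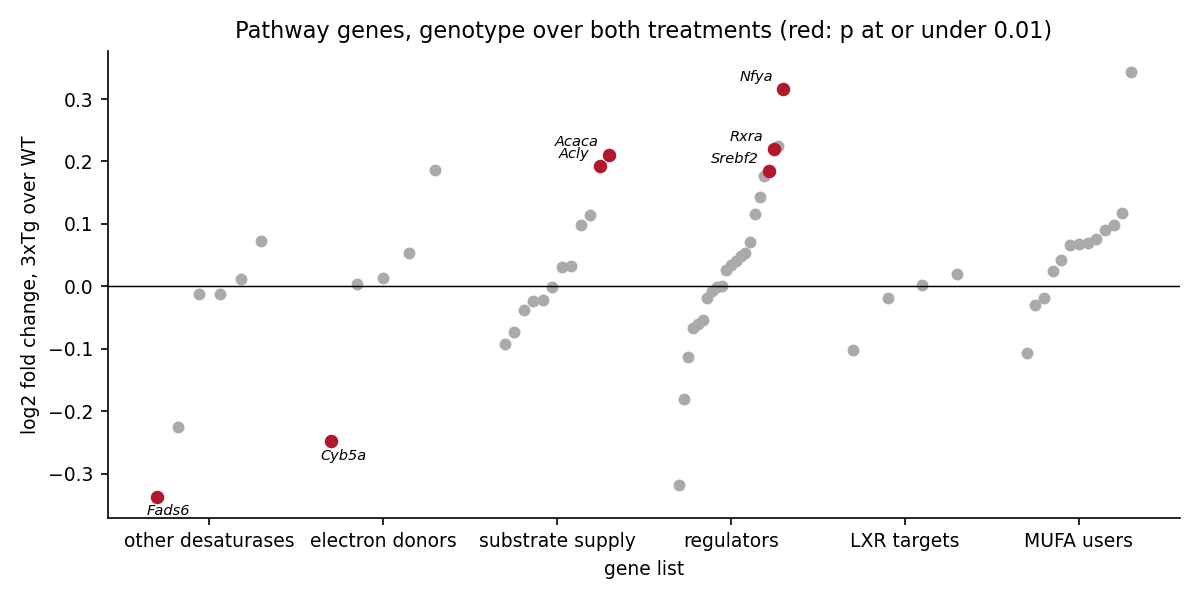
Log2 fold change of the 63 tested pathway genes in 3xTg over WT mice across both treatments (y axis), by gene list (x axis) and sorted within each list, in red where p was 0.01 or less. Fads6 (−0.34) and Cyb5a (−0.25) are the red genes below 0, and Nfya (0.32), Rxra (0.22), Acaca (0.21), Acly (0.19) and Srebf2 (0.18) are those above it.

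Within 500 kb of the outer ends of the cluster on chromosome 19, 37 other genes stand in the table, and 13 of them were tested. Over both treatments 0 of the 13 were called and lower in 3xTg mice, where 4.02% of all tested genes were. With 13 genes, a count of 0 cannot be told apart from that share. The log2 differences of the 13 over both treatments ran from −0.82 (Pkd2l1) to 0.19, with a median of 0.02. Of these 2 rose and 0 fell, where 7.9% of all tested genes were called in either direction. The 2 were Cox15, an assembly factor of cytochrome oxidase (log2 0.19, SE 0.04, edgeR adjusted p = 0.00817), and Hif1an, an inhibitor of hypoxia-inducible factor (log2 0.19, SE 0.05, edgeR adjusted p = 0.0510). Entpd7 and Cox15 were called between 3xTg-S and WT-D mice, with log2 differences of 0.33 and 0.25, and between 3xTg-S and WT-S mice, with log2 differences of 0.32 and 0.22 (the largest edgeR adjusted p = 0.225, for Cox15 against WT-S, and none under the adjusted threshold). Of all tested genes 5.84% and 4.3% were called in these comparisons. Ndufb8, the nearest tested gene beyond Scd1, had a log2 difference of −0.08 (edgeR adjusted p = 0.785), and Gm50323, which overlaps Scd3, had a log2 difference of −0.24 (edgeR adjusted p = 0.741).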

How the data were processed

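Hippocampal mRNA of 16 female mice was sequenced as single-end reads, with 4 mice per group as given by the labels. Per the labels and the study's methods, the authors trimmed reads with Trimmomatic 0.35 and aligned them to GRCm38 with STAR 2.5.1b, and deposited raw counts per gene. UMI adapters were used in library preparation. Whether reads were deduplicated and with which strand setting they were counted is not given in the sources used here. The table held 55335 genes and 4 summary lines, which took 24.0% to 27.8% of reads and were kept out of library sizes, and 0 unmapped columns.

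Counts were tested with edgeR 4.0.16 (R 4.3.3, quasi-likelihood F test, two-sided) after filterByExpr over all 16 mice (minimum count 10, minimum total 15), which kept 16475 of 33942 genes with a read, and TMM scaling. Pairwise fits used 8 mice. The fits of genotype over both treatments, of treatment over both genotypes and of their interaction used 16. A call is p of 0.01 or less, the study's threshold, and Benjamini-Hochberg adjusted p is given beside it. The SE is the log2 fold change over the square root of F. Fold changes come from the fit, and log2 CPM, used for correlations, has a prior count of 2. Shares of reads were compared by exact permutation tests over mice and correlations by permutation over mice (100000 resamples above 8 mice, SciPy 1.17.1, Python 3.11.15). Nothing states separate cultures or litters beyond the mouse, and p-values measure the spread between these mice. The fits and share tests were tested on simulated data.

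Gene lengths, exons and sequences came from the Gencode annotation of GRCm38. A further allele of the 3xTg line and a marker gene are not reported here. The members and all gene lists were chosen with earlier results of these data known. Genes named from the pathway lists were those called in a comparison and 9 named in any case (Scd4, Elovl6, Fasn, Acaca, Srebf1, Cyb5a, Cyb5r3, Nr1h2 and Nr1h3). Beside these, called neighbours, Ndufb8 and Gm50323 within 500 kb and the 5 genes most alike to each member were named, and called markers as needed.

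Same-numbered mice were compared by the correlation of their deviations from group means. In WT-S against WT-D every pair exceeded 0.1 (lowest 0.114, mean 0.217), and in the other pairs of groups the lowest was −0.101 to 0.0616. The mean was 0.241 in 3xTg-S against WT-S, 0.213 in 3xTg-S against 3xTg-D, 0.176 in 3xTg-S against WT-D and 0.0414 in 3xTg-D against WT-D. Means for differently numbered mice were −0.0839 to −0.0103. The pairing rests on this check alone, since the labels do not say what the numbers mark. Alternatives were RLE scaling, no filter or at least 10 counts in every mouse, DESeq2 1.42.0 (Wald test, and likelihood ratio test with DEGES size factors from 3 iterations), a fit of all 16 mice, the mouse number as a block, a score of oligodendrocyte markers as a covariate, likewise the share of reads outside genes, an adjusted threshold, and leaving out each mouse.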

Additional observations from a re-analysis of the deposited data

How the results depend on the processing

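No value changed direction past a threshold. Over the full groups, 220 fold changes of Scd1, Scd2 and Scd3 under another setting kept their side of the threshold, 13 newly passed it and 1 no longer did. Scd1 over both treatments kept its log2 value of −0.25 but missed an adjusted p of 0.05 (edgeR adjusted p = 0.0632). Scd1 between 3xTg-D and WT-D mice passed the threshold of 0.01 with the replicate block (−0.19) and with the share of reads outside genes as a covariate (−0.29). Between 3xTg-S and WT-D mice it passed with no filter on low counts (−0.31), DESeq2's Wald test (−0.30), DESeq2's likelihood ratio test with DEGES size factors (−0.30), the replicate block (−0.29) and the share of reads outside genes (−0.25). Between 3xTg-S and WT-S mice it passed with no filter (−0.34), the Wald test (−0.33), the likelihood ratio test (−0.33), all 16 mice in the fit (−0.32), the replicate block (−0.32) and the share of reads outside genes (−0.22). The cause was not tested.

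Leaving out each mouse in turn moved Scd1 between −0.39 and −0.23 for 3xTg-S against WT-D mice (called without 3xTg-S mouse 2) and between −0.42 and −0.23 for 3xTg-S against WT-S mice (called without WT-S mouse 4 or 3xTg-S mouse 2). It moved Scd3 over both treatments between −0.37 and −0.27, called without WT-D mouse 1, WT-S mouse 4 or 3xTg-S mouse 2. With 3 mice against 4 the exact permutation p of a share cannot go below 0.0571. The share of Scd1 then differed by −1.81 to −1.37 points (3xTg-D against WT-D), −1.69 to −1.25 (3xTg-S against WT-D) and −1.85 to −1.31 (3xTg-S against WT-S), and that of Scd2 by 1.43 to 1.84, 1.30 to 1.71 and 1.38 to 1.92. The share of Scd3 over both treatments differed by −0.0554 to −0.0398 points, with an exact permutation p up to 0.0656, and by −0.0297 without both mice rich in choroid plexus markers, an alternative chosen after seeing the data.

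The block raised the calls over all genes from 149 to 1133 in 3xTg-S against 3xTg-D, from 709 to 1394 in 3xTg-S against WT-S and from 33 to 116 in WT-S against WT-D, and changed no other call of the desaturases. In 3xTg-S against WT-D mice 7 of 8 mice correlated best with their own number, and in 3xTg-S against 3xTg-D 4 of 8. The mouse numbered 4 had the lowest Scd1 in 4 of 4 groups and the lowest Scd2 in 3 of 4. The mouse numbered 2 had the highest Scd2 in 4 of 4 groups and the highest Scd1 in 3 of 4. Over all genes, the calls rose without 3xTg-S mouse 2 from 962 to 1537 against WT-D and from 149 to 756 against 3xTg-D mice, and without WT-S mouse 4 from 33 to 522 in WT-S against WT-D. Scd3, with 42 to 110 reads per mouse, had the widest intervals.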
